A study of Mus musculus with 6 samples.

Results

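Transcripts of 35 genes for glycolysis, its entry into mitochondrial oxidation and the pentose phosphate pathway were followed in germinal centre B cells from mice with and without a Uchl1 transgene. The genes were fixed as a list of names, and a gene counted as measured where at least 1 probe set of the array was annotated to it alone. That held for 30 of the 35, among 18193 genes in all. Gapdh was read only by 3 probe sets shared with other symbols, and Gpi1, Pfkfb1, Eno1 and G6pdx were not analysed here.

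Cells were obtained with magnetic beads from spleens after immunisation with sheep red blood cells, and total RNA of 6 samples was read on Affymetrix whole-genome mouse arrays with 3′ biased labelling. The control group was ImHABCL6 (3 arrays), mice that express a tagged BCL6, the repressor that defines germinal centre B cells. The ImHABCL6/Uchl1 group (3 arrays) carried the same BCL6 allele and, in addition, transgenic Uchl1, a deubiquitinating enzyme. Strain, age, sex and the promoter of the Uchl1 transgene are not given in the sources used here. The comparison asked how the transgene alters transcript levels in these cells.

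Glycolysis splits glucose into pyruvate, with hexokinase and phosphofructokinase as its main controlled steps, and lactate dehydrogenase turns pyruvate into lactate. Pyruvate dehydrogenase, which its kinases inhibit, sends pyruvate into mitochondria instead, and the pentose phosphate pathway draws off glucose 6-phosphate for NADPH and ribose. Dividing B cells need both products, and several steps are served by isoenzymes that differ between tissues.

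The labels held at the targeted gene. Uchl1 read at most 5.02 on the log2 scale in the controls and at least 5.87 with the transgene, a log2 difference of 0.94 (SE 0.12, limma adjusted p = 0.638). Its probe set was dim, with a mean over the 6 arrays under 5.61, the median of all probe sets. Bcl6 differed by 0.24 (SE 0.15). Germinal centre and B-cell markers were present on all arrays, with a mean over 12 measured markers of 10.69 to 11.20. Red-cell precursor transcripts were abundant too: the mean of 12 measured erythroid markers was 10.20, 10.78 and 11.19 in the controls and 8.62, 10.58 and 10.02 with the transgene. Pearson correlations between arrays across genes were 0.979 to 0.995. The arrays of a group are treated as separate mice from the design text, and their number limits the precision. In a bulk sample, fewer cells of a type and less RNA per cell cannot be told apart.

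As a group the 30 genes did not differ in 1 direction between genotypes. In ImHABCL6/Uchl1 samples 16 were lower and 14 higher (53.3% lower, against 49.4% of all genes), with a median log2 difference of -0.04 against 0.0029 over all genes. The individual differences ran from -0.76 for Pfkm to 0.28 for Pfkfb4. With limma, 0 of the 30 genes had an adjusted p under 0.05, as did 0% of the 18193 genes. At an unadjusted p under 0.05, 3 of the 30 passed (10%, against 4.94% of all genes), and all 3 were lower with the transgene (3.85% of all genes were lower at this level and 1.09% higher). The groups did not overlap for 4 (13.3%, against 9.44% of all genes). These were Hk1, Pfkm, Pfkfb2 and Eno3, all lower with the transgene, as were 5.49% of all genes. For 27 of the 30 the 95% interval of the log2 difference included 0, and for 28 it lay within a 2-fold change in either direction. The median of the 30 genes was 0.13 without ImHABCL6/Uchl1 replicate 2. Centring each array on its median made 63.3% of the 30 genes and 57.1% of all genes lower. With the erythroid mean as a covariate 24 of 30 were lower, at a median of -0.20, against 52.9% of all genes.

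**Figure D1:**
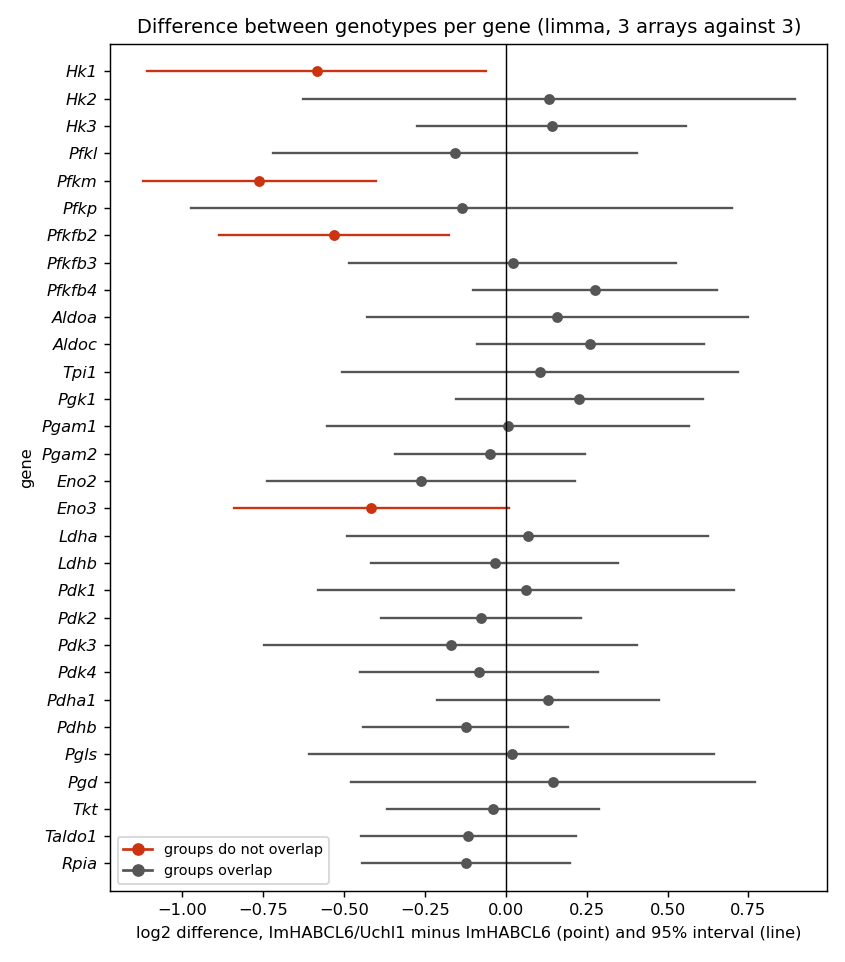
Log2 difference between ImHABCL6/Uchl1 and ImHABCL6 (x axis; points are limma estimates and lines their 95% intervals) for the 30 measured genes (y axis), from 3 arrays in each group. The 4 genes in red, whose groups do not overlap, all lie left of 0, and the intervals of Hk1, Pfkm and Pfkfb2 leave 0 out.

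Hexokinases trap glucose in the cell as glucose 6-phosphate. Hk1, the widely expressed isoenzyme and the main form of red cells, read 9.97, 10.24 and 10.49 in the controls and 9.19, 9.80 and 9.95 in ImHABCL6/Uchl1 samples. Every transgenic sample lay below every control, by 1.50-fold on average (log2 difference -0.59, SE 0.23, limma adjusted p = 0.983). The nearest samples were close, at 9.95 against 9.97. A dimmer Hk1 probe set gave -0.41 with the groups apart as well. Hk2, the inducible isoenzyme of muscle and many tumours, read 8.14, 7.85 and 7.78 against 8.47, 7.21 and 8.49. Its transgenic samples lay on both sides of the controls, with a difference of 0.13 (95% interval -0.63 to 0.89). Hk3, the isoenzyme of myeloid cells, read 6.04, 6.29 and 6.33 against 6.32, 6.68 and 6.09, and the groups overlapped (difference 0.14, 95% interval -0.27 to 0.56).

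Hk1 was lowest in ImHABCL6/Uchl1 replicate 1, the sample of the lowest erythroid mean, and highest in control replicate 3, the sample of the highest. The dimmer Hk1 probe set was also lowest in ImHABCL6/Uchl1 replicate 1. Its controls read 5.17, 5.19 and 5.16, with control replicate 3 the lowest of them. With the erythroid mean as a covariate the Hk1 difference was -0.21 (limma adjusted p = 0.559), and without ImHABCL6/Uchl1 replicate 1 it was -0.36. Hk1 had a limma unadjusted p under 0.05 without the covariate and not with it. Over all genes 898 passed at that level without the covariate and 2706 with it, so the adjusted p values of these fits are not directly comparable. Of the 12 erythroid markers, 11 were lower with the transgene, with a median difference of -1.18 and a range of differences from -1.45 to 0.05. The groups did not overlap for 3 of them (25%, against 9.44% of all genes). The erythroid mean had an exact two-sided permutation p of 0.2. The markers ran from Slc4a1, at 11.93 to 14.12 over the 6 arrays, down to Hba-a1, whose probe set read 3.89 to 4.41. How far red-cell RNA accounts for the Hk1 difference was not tested beyond that covariate.

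Phosphofructokinase commits sugar to glycolysis and is built from liver, muscle and platelet subunits. Pfkm, the muscle subunit, which red cells also contain, had the smallest p of the 30 genes. It read 8.49, 8.49 and 8.45 in the controls and 7.44, 7.75 and 7.95 with the transgene. The controls lay within 0.1 of each other and all transgenic samples at least 0.5 below them, a 1.70-fold difference (log2 -0.76, SE 0.16, limma unadjusted p = 0.00121, adjusted p = 0.709). Pfkl, the liver subunit, read 7.56, 7.76 and 7.41 against 7.68, 6.85 and 7.73 and overlapped (-0.16, SE 0.24). Pfkp, the platelet subunit, read 10.53, 10.02 and 9.72 against 10.44, 9.11 and 10.31 and overlapped as well (-0.14, SE 0.36). The Pfkm difference was -0.61 with the erythroid covariate (limma adjusted p = 0.314) and ran from -0.88 to -0.63 when 1 array at a time was left out. Its lowest value was in ImHABCL6/Uchl1 replicate 1. In the controls Pfkm ran from 8.45 to 8.49 and the erythroid mean from 10.20 to 11.19. How far red-cell RNA accounts for the Pfkm difference was not tested beyond that covariate. The covariate moved other genes further from 0: Pfkp was then at -0.74 and Pdk3 at -0.53 (limma adjusted p = 0.317 and 0.334), both with an unadjusted p under 0.05. In that fit 5 of the 30 genes and 2706 of all 18193 had a limma unadjusted p under 0.05. Without the covariate these were 3 and 898.

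To show the start regions of the genes these contrasts turn on, RefSeq promoters (GRCm38.p6, 300 bases around an annotated start, mostly upstream) are printed for Hk1 and Pfkm, for the isoenzymes Hk2 and Pfkp, whose groups overlapped, and for Ldha. Sequences are 5′ to 3′ on the gene's strand. Capitals mark 3 motifs that were searched on both strands. The core of the hypoxia response element was searched as ACGTG. The E-box that MYC and related factors bind was searched as CACGTG, which also holds the former motif on both strands. The motif of the erythroid GATA factors was searched as AGATAA.
Hk1, first listed start, chr10:62379859-62380158, minus strand: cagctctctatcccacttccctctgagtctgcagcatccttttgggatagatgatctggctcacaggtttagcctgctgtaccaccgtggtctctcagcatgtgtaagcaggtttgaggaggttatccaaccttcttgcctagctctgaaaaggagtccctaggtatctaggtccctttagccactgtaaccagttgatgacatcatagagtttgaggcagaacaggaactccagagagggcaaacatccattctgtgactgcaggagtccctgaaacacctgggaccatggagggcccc
Hk1, second listed start, chr10:62340372-62340671, minus strand: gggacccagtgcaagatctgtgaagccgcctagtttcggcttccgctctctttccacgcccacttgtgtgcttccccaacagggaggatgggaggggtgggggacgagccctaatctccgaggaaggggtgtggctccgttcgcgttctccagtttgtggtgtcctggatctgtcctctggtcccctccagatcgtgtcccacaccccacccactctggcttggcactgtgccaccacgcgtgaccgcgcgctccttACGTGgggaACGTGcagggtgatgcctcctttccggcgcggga
Hk2, first listed start, chr6:82774405-82774704, minus strand: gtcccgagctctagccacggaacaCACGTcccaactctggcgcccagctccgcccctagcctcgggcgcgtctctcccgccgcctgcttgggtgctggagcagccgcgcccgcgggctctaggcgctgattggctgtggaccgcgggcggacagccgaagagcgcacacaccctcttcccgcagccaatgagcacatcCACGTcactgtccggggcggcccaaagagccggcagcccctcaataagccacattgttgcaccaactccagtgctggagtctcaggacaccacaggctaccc
Pfkm, first listed start, chr15:98092339-98092638, plus strand: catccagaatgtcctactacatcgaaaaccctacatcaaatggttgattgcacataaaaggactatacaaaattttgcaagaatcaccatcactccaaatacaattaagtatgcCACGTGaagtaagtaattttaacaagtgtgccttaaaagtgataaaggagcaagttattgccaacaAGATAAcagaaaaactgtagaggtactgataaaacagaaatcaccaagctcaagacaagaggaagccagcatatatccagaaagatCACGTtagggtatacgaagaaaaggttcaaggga
Pfkm, second listed start, chr15:98108221-98108520, plus strand: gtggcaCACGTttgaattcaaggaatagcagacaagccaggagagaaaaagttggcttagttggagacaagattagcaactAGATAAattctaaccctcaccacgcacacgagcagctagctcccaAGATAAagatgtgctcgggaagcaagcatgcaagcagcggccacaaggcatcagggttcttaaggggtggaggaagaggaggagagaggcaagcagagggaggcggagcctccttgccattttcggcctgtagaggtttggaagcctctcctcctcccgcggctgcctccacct
Pfkp, first listed start, chr13:6648722-6649021, minus strand: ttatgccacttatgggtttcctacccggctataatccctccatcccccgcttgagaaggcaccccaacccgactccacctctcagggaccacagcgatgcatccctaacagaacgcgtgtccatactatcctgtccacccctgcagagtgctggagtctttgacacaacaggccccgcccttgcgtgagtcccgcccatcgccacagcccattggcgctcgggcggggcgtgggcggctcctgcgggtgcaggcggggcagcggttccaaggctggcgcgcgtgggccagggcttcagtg
Ldha, first listed start, chr7:46845554-46845853, plus strand: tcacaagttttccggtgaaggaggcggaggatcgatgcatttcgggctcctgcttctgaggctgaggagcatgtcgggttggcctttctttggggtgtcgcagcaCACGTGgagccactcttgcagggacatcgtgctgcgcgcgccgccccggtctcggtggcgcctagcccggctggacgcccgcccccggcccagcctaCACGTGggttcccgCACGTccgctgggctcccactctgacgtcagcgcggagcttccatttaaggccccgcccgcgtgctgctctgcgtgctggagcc

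All 35 genes of the list had an entry in the promoter table, with 54 promoters. ACGTG was found in 20 of them (37.0%, against 19.6% of the 32851 promoters of all genes), CACGTG in 5 (9.26%, against 7.15%) and AGATAA in 8 (14.8%, against 11.2%). The Ldha promoter shown held 2 E-boxes and 1 further ACGTG core. Hk2 and the second Hk1 start held 2 ACGTG cores each, and the first Hk1 start and Pfkp none of the 3 motifs. The first Pfkm start held 1 E-box, 1 further ACGTG core and 1 AGATAA, and the second 1 ACGTG core and 2 AGATAA. Of the starts not printed, the third of Pfkm held 1 AGATAA, and the fourth of Pfkm and the second of Ldha held none of the motifs. These are matches of letters, the arrays do not tell which start was used, and base composition was not matched between the promoter sets.

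The PFKFB enzymes make and break down fructose 2,6-bisphosphate, the activator of phosphofructokinase. Pfkfb2, the form known from heart, read 6.05, 5.67 and 5.82 in the controls and 5.45, 5.34 and 5.15 with the transgene. All transgenic samples lay below all controls (-0.53, SE 0.15, limma adjusted p = 0.877). This probe set is dim, with a mean under 5.61, the median of all probe sets, and the average of all Pfkfb2 probe sets differed by only -0.13. The other Pfkfb2 probe sets, all dimmer, overlapped between the groups. Pfkfb3, the inducible form with high kinase activity, averaged 6.79 ± 0.27 in controls and 6.81 ± 0.36 with the transgene (SD, n = 3 each). Pfkfb4 averaged 6.79 ± 0.13 and 7.06 ± 0.25 (SD, n = 3 each), with overlapping groups and a difference of 0.28 (95% interval -0.10 to 0.65).

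Enzymes from aldolase to enolase carry the split sugar to phosphoenolpyruvate and yield ATP. Aldoa, the main aldolase outside liver and brain, read 11.60, 11.15 and 10.97 in the controls and 11.60, 10.88 and 11.71 with the transgene. Tpi1, triose phosphate isomerase, read 11.44, 11.27 and 10.94 against 11.50, 10.73 and 11.74. In both genes ImHABCL6/Uchl1 replicate 2 was the lowest sample and replicate 3 the highest, and the groups overlapped. Pgk1, the first ATP-yielding enzyme, read 11.79, 11.77 and 11.85 against 12.08, 11.72 and 12.28 (difference 0.23, 95% interval -0.16 to 0.61). Pgam1, the main phosphoglycerate mutase, differed by 0.01 (SE 0.24) and its muscle isoenzyme Pgam2 by -0.05 (SE 0.13). Aldoc, the brain aldolase, differed by 0.26 (SE 0.15), with overlap.

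Among the enolases Eno3, the muscle form, read 6.60, 5.95 and 6.18 in the controls and 5.91, 5.69 and 5.88 with the transgene. The groups lay apart, though control replicate 2 exceeded ImHABCL6/Uchl1 replicate 1 by little (difference -0.42, SE 0.18, limma adjusted p = 0.998). Without control replicate 1 the difference was -0.24. Eno2, the neuronal form, was dim and differed by -0.26 (SE 0.21), with overlap.

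**Figure D2:**
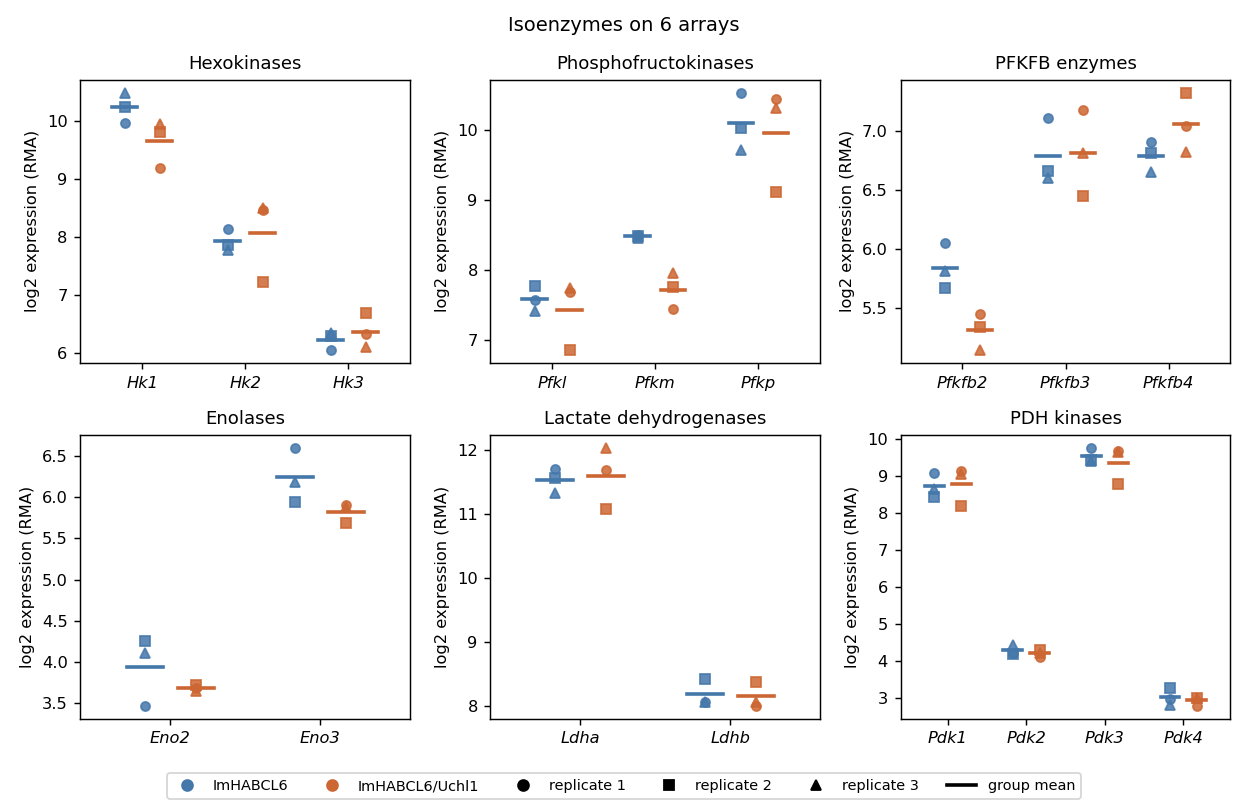
Log2 RMA expression (y axis) of the isoenzymes of 6 families (x axis) on each array, with blue points for ImHABCL6, orange for ImHABCL6/Uchl1, marker shapes for replicates and bars for group means. Hk1, Pfkm, Pfkfb2 and Eno3 have groups that do not overlap, while Hk2, Pfkp and Ldha spread across both groups. Levels of different genes come from different probe sets and are not comparable.

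Lactate dehydrogenase joins A and B subunits, and the A form favours lactate production. Ldha read 11.70, 11.57 and 11.33 in the controls and 11.70, 11.08 and 12.03 with the transgene. The lowest and the highest value of all 6 arrays were both transgenic, and the difference was 0.07 (95% interval -0.49 to 0.62). Ldhb read 8.06, 8.43 and 8.07 against 8.01, 8.38 and 8.07, a difference of -0.03 (95% interval -0.42 to 0.35). Its other probe sets, singled out after their values were seen, did not follow that one. One of them, just above the dim line, read 5.52, 5.66 and 5.49 in the controls and 5.91, 5.99 and 6.11 with the transgene. All its transgenic samples lay above its controls (0.44, SE 0.13, limma unadjusted p = 0.00855), as they did on another (0.51, SE 0.16), which lay under the dim line. Of the 11 genes with several probe sets at or above that line, 4 (Pfkl, Pfkp, Ldhb and Pdk1) had probe sets that differed in sign.

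At the branch into mitochondria, Pdk1, a hypoxia-inducible kinase that switches pyruvate dehydrogenase off, read 9.09, 8.43 and 8.66 in the controls and 9.13, 8.18 and 9.04 with the transgene. The groups overlapped, at a difference of 0.06 (95% interval -0.58 to 0.71). Pdk3, a related kinase, differed by -0.17 (SE 0.25), and the dim Pdk2 and Pdk4, a form induced by fasting, by -0.08 each. The subunits of the enzyme's first component, Pdha1 and Pdhb, differed by 0.13 (SE 0.15) and -0.12 (SE 0.14). All of these overlapped between the groups.

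In the pentose phosphate pathway 0 of the 5 measured genes separated the groups, as did 9.44% of all genes, so that so few genes say little. Pgd, which yields NADPH in the oxidative branch, read 11.12, 10.87 and 10.56 in the controls and 11.43, 10.40 and 11.16 with the transgene. The range of the transgenic samples enclosed that of the controls (0.15, 95% interval -0.48 to 0.77). Tkt, the transketolase of the sugar-exchanging branch, read 13.41, 13.25 and 13.23 against 13.25, 13.09 and 13.44. It differed by -0.04 (95% interval -0.37 to 0.29). Pgls, the lactonase, differed by 0.02 (SE 0.27), Taldo1, transaldolase, by -0.12 (SE 0.14), and Rpia, ribose 5-phosphate isomerase, by -0.12 (SE 0.14).

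Isoenzymes of 1 step were then compared by the log2 ratio of their values on the same array, which asks whether they changed unequally and not which is more abundant. Of 19 pairs in 8 families, the ratio did not overlap between the groups for 4 (21.1%), and the levels of single genes did not overlap for 9.44% of all genes. The pairs reuse genes, and Pfkfb2 is in 2 of the 4. Hk1 against Hk3 was lower with the transgene by 0.73 on average, with ratios of 3.93, 3.96 and 4.15 in the controls and 2.87, 3.12 and 3.86 with the transgene. Pfkfb2 was lower against Pfkfb3 (change -0.55) and against Pfkfb4 (-0.81). Pdk1 was higher against Pdk3 (0.23), with ratios of -0.66, -1.01 and -0.75 against -0.53, -0.59 and -0.60. Each of these 4 had an exact two-sided permutation p of 0.1, the smallest that 3 arrays against 3 allow, and a Benjamini-Hochberg value over the 19 pairs of 0.475.

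The ratios of the other pairs overlapped, and 4 of them are given here. Hk1 over Hk2 was 1.83, 2.39 and 2.71 in the controls and 0.72, 2.59 and 1.46 with the transgene (change -0.72, exact permutation p = 0.3). Pfkm over Pfkp changed by -0.63 (exact permutation p = 0.3) and Pfkl over Pfkm by 0.61 (exact permutation p = 0.2). Ldha over Ldhb was 3.64, 3.14 and 3.26 against 3.69, 2.70 and 3.96 (change 0.10, exact permutation p = 0.9). In each of the 4, ImHABCL6/Uchl1 replicate 2 lay on the control side of the other transgenic samples or past it, so that leaving it out, which gave 10 pairs that did not overlap, follows from the choice of that array. Leaving out any 1 of the other arrays gave 4 or 5. With fewer arrays groups separate more easily, and without that array 21.7% of all genes did not overlap, against 9.44% with it. Without ImHABCL6/Uchl1 replicate 1 the share of all genes was higher, at 24.4%, but only 4 pairs did not overlap. Of the measured genes of the list, 11 did not overlap without ImHABCL6/Uchl1 replicate 2 and 4 with all arrays. Leaving out any 1 of the other arrays gave 5 to 7 such genes, with 5 for ImHABCL6/Uchl1 replicate 1.

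These genes also varied between samples of 1 genotype. The median range of a gene was 0.36 within the controls and 0.53 within the transgenic samples (0.29 and 0.42 for all genes). The difference between the genotypes exceeded both ranges for 2 of the 30, Pfkm and Pfkfb2 (6.67%, against 4.30% of all genes). At or above the dim line it did so for 1 gene (3.85%, against 4.85% of all genes). Among genes at or above the dim line the median range over 6 arrays was 0.87 for 26 of the 30 and 0.62 for all 10836. ImHABCL6/Uchl1 replicate 2 was the lowest array for 17 of the 30 (56.7%, against 27.9% of all genes), and replicate 3 was the highest for 10 (against 12.5% of all genes). The median deviation of the 30 genes from their 6-array means was 0.13, -0.0023 and -0.10 in the controls and 0.12, -0.25 and 0.10 with the transgene. Control replicate 3 and ImHABCL6/Uchl1 replicate 2 were therefore the low samples of their groups. Aldoa, Tpi1, Pgam1, Ldha and Pgd were the lowest of their group in both. On the probe sets that stand for them, Pgk1, Hk1, Hk3 and the dim Pdk2 were the highest of the controls in control replicate 3. The other probe sets of Pgk1 and Hk1 were the lowest of the controls there, with Pgk1 at 11.42 and 10.91 and Hk1 at 5.16. The other Hk3 probe set was the highest of the controls there too, at 6.08.

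**Figure D3:**
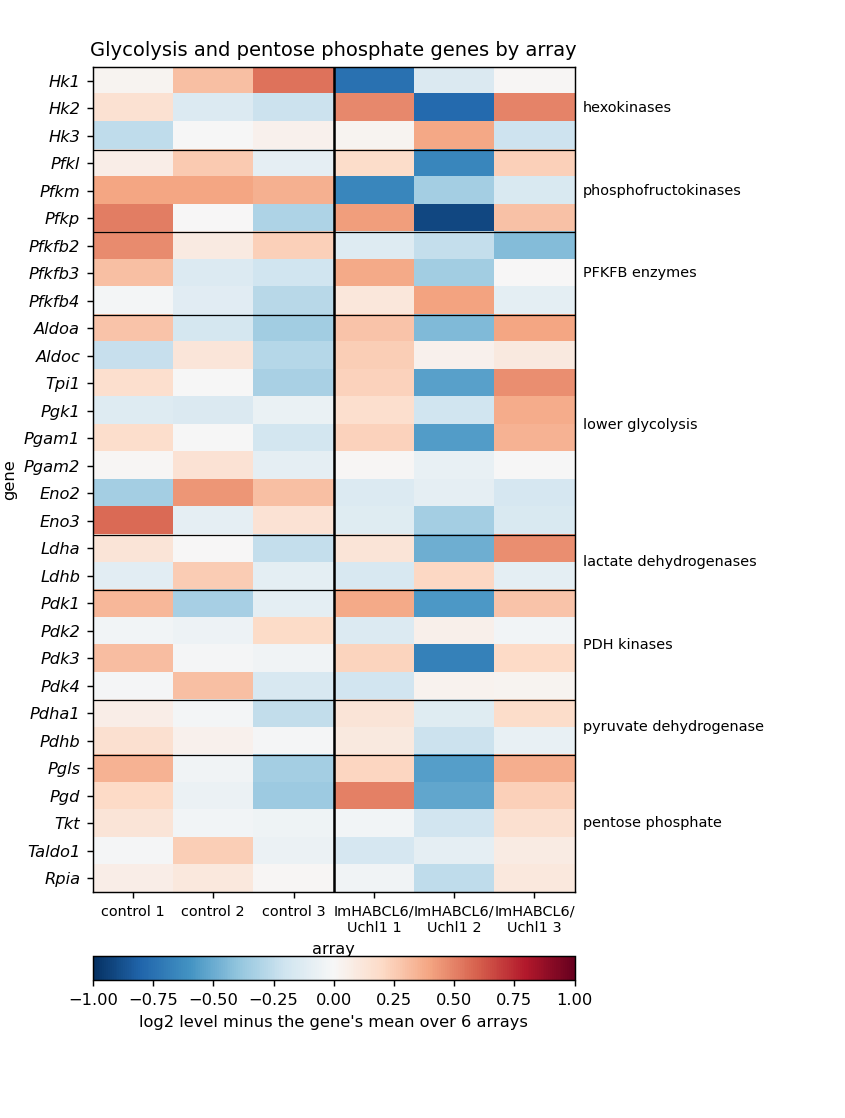
Deviation of each gene's log2 level from its mean over 6 arrays (colour; red above, blue below the mean) for the 30 measured genes (rows, by role) on each array (columns; the line divides ImHABCL6, labelled control, from ImHABCL6/Uchl1). The column of ImHABCL6/Uchl1 replicate 2 is the lowest for 17 genes, and Hk1 and Pfkm are lowest in ImHABCL6/Uchl1 replicate 1.

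The same samples stood apart in the array's own Gapdh controls, which read the 3′ end, middle and 5′ end of the transcript of this glycolytic enzyme. The 3′ probe set read 13.15, 13.07 and 12.89 in the controls and 13.24, 12.67 and 13.19 with the transgene. The 5′ probe set read 11.88, 11.75 and 11.12 against 12.03, 10.73 and 11.96. The gap between them, which widens in degraded or poorly copied RNA, was 1.26, 1.32 and 1.76 in the controls and 1.21, 1.94 and 1.22 with the transgene. The corresponding gap of beta-actin was also widest in these samples, at 1.04 and 1.03, against 0.72 to 0.95 in the others. When the Gapdh gap entered the fit (an alternative added with the results in view), the median difference of the 30 genes stayed at -0.04 and their median standard error was 0.14 in place of 0.18. For all genes it was 0.13 in place of 0.17. Without both samples, also an added alternative, the median difference was 0.05 and 12 of 30 genes were lower. Whether RNA quality sets the low values was not tested, and the covariate is itself built from a gene of the pathway.

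**Figure D4:**
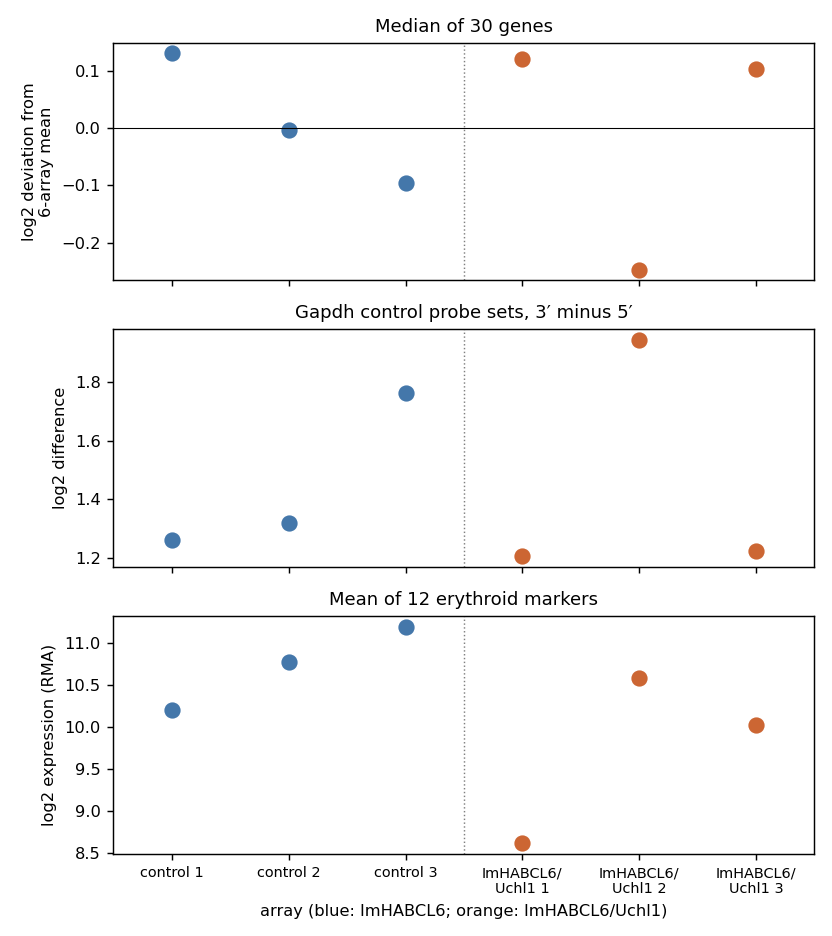
Median deviation of the 30 genes (top), gap between the 3′ and 5′ Gapdh control probe sets (middle) and mean of 12 erythroid markers (bottom), all on the log2 scale (y axes), for each array (x axis; blue ImHABCL6, orange ImHABCL6/Uchl1). The arrays of widest gap, control replicate 3 at 1.76 and ImHABCL6/Uchl1 replicate 2 at 1.94, have the lowest medians, and ImHABCL6/Uchl1 replicate 1 has the lowest erythroid mean.

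Beyond the list, 42 of 45 further genes of glucose and pyruvate handling were measured, and 0 passed at a limma adjusted p under 0.05. At an unadjusted p under 0.05, 5 of the 42 passed (4.94% of all genes did), of which 4 were lower (3.85% of all genes) and 1 higher (1.09% of all genes). Slc16a1, the lactate and pyruvate carrier MCT1, read 11.89, 12.31 and 12.92 in the controls and 11.07, 11.86 and 11.80 with the transgene. The groups lay just apart, at -0.80 (SE 0.30), and the erythroid covariate left -0.27. Pck2, mitochondrial phosphoenolpyruvate carboxykinase, differed by -0.58 (SE 0.15), Minpp1, an inositol polyphosphate phosphatase, by -0.59 (SE 0.17), and Pgm2l1, glucose 1,6-bisphosphate synthase, by -0.55 (SE 0.23). Pgm2l1 was at -0.15 with the erythroid covariate, and Minpp1 at -0.38 without the 2 samples of widest Gapdh gap. Pdp2, a phosphatase that switches pyruvate dehydrogenase on, was higher by 0.42 (SE 0.13). Their limma adjusted p values were 0.854 to 0.992.

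Pkm, the pyruvate kinase gene of most tissues, whose enzyme closes glycolysis, read 10.06, 9.48 and 9.36 in the controls and 9.97, 9.11 and 10.32 with the transgene (difference 0.17, 95% interval -0.57 to 0.90). Pklr, the liver and red-cell gene, differed by -0.22 (SE 0.22). That value depended on the probe set: the average of all its probe sets differed by -0.39. Without suffixed probe sets Pklr was at -0.71 (limma adjusted p = 0.860). Bpgm, the red-cell enzyme that makes 2,3-bisphosphoglycerate, read 10.37, 12.53 and 12.90 against 11.28, 13.87 and 11.76, the widest range of the genes named here. Its difference was 0.37 (SE 0.80), and 1.77 with the erythroid covariate. It was highest in ImHABCL6/Uchl1 replicate 2. The glucose carrier Slc2a1 differed by 0.36 (95% interval -0.07 to 0.80), with overlap. Of 16 regulators of these genes 0 had a limma unadjusted p under 0.05 (4.94% of all genes did). Hif1a, the oxygen-sensitive activator, differed by -0.08 (SE 0.22) and Myc by -0.30 (SE 0.34), and both were lowest in ImHABCL6/Uchl1 replicate 2, at 10.48 and 7.75. With the erythroid covariate they were at -0.41 and -0.85.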

How the data were processed

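The authors deposited RMA expression values on the log2 scale for every probe set of each array. The submitters' processing notes name RMA and Partek without versions. RMA normalizes between arrays and compresses differences of dim probe sets. Values ran from 2.16 to 15.1, without detection calls.

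Of 45101 probe sets, 34945 had 1 gene symbol in GEO's platform annotation and 932 several, which were not used. Where a gene had several probe sets, the brightest on average stood for it, which gave 18193 genes. RefSeq identifiers changed 0 symbols. The genotype difference was fitted on all genes by limma 3.58.1 (lmFit and eBayes, R 4.3.3), two-sided, with Benjamini-Hochberg adjustment and a threshold of 0.05. Single isoenzyme ratios were compared with exact permutation tests. The fit was tested on simulated data with noise drawn independently for each gene and array, without variation that genes share. Differences are ImHABCL6/Uchl1 minus ImHABCL6. A probe set was called dim where its mean lay under 5.61.

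The genes and lists were chosen with earlier results of these data known. All 35 genes were to be named, those apart between groups or representing a step with all values, and further pathway genes where limma gave an unadjusted p under 0.05, besides Pkm, Pklr, Bpgm, Slc2a1, Hif1a and Myc. Alternatives were other probe set choices, normalizations, variance options, array weights, a replicate block, an erythroid covariate and leaving out each array. Figures were drawn with matplotlib 3.10.9.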

Additional observations from a re-analysis of the deposited data

How the results depend on the processing

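In limma, 0 of all genes, of the 30 genes and of the further pathway genes passed under every alternative run and at an adjusted p under 0.10, where unadjusted p values under 0.05 went to between 387 and 2819 of all genes. The median difference of the 30 genes ran from -0.12 to 0.13 when each array was left out in turn, the highest without ImHABCL6/Uchl1 replicate 2, and 13 to 21 genes were then lower. It was 0.08 with array weights and -0.20 with the erythroid covariate. The number of isoenzyme pairs with groups apart ran from 4 to 10 when arrays were left out, the highest without ImHABCL6/Uchl1 replicate 2. Of the 30 genes, 19 changed sign in at least 1 alternative and 11 kept it in all that could be run for them. The 11 were Hk1, Pfkm, Pfkfb2, Eno3, Pfkfb4, Aldoc, Pgk1, Eno2, Pdhb, Taldo1 and Rpia. For Hk1, Pfkm, Pfkfb2 and Eno3, whose groups do not overlap, leaving out arrays cannot change the sign. The filter on dim genes left out Pfkfb2, and leaving out suffixed probe sets left out Hk1. Same-numbered samples deviated together for replicates 1 and 2 (r across genes of 0.43 and 0.19) and not for replicate 3 (-0.26). Differently numbered samples ran from -0.59 to 0.53, the latter for control replicate 3 with ImHABCL6/Uchl1 replicate 2. The numbers were therefore not taken as pairs. With a replicate block the median difference was -0.04, 16 genes were lower and 0 passed, and 1002 of all genes had an unadjusted p under 0.05 in place of 898.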
